A study of Mus musculus with 24 samples.

Results

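A group of 9 genes of the muscle-forming program were followed in the gastrocnemius of young and adult mice after a burn: Pax7, Myf5, Myod1, Myog, Myf6, Mef2c, Mymk, Mymx and Cdh15. They were chosen by name as the satellite cell factor Pax7, the myogenic regulatory factors, their partner Mef2c, the fusion proteins Mymk and Mymx and the adhesion protein Cdh15, and they are 9 of 55401 genes in the counts. Male C57BL6 mice came at 4 weeks (young) or 10 weeks of age (adult) and, after a week of acclimation, were scalded over 25% of their body surface or were treated as sham. The sham mice had anaesthesia and analgesia without burn or resuscitation. The muscle, which lay away from the burned skin, was taken 24 h later. Crossing age with treatment gave 4 groups of 3 mice (young sham and adult sham, young burn and adult burn), and poly-A RNA of every mouse was sequenced as a library of its own, 12 in all.

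Skeletal muscle keeps a pool of satellite cells, stem cells under the sheath of the fibre that are marked by Pax7. When such a cell enters the muscle lineage it uses Myf5 and Myod1, both basic helix-loop-helix factors that bind E-boxes in DNA, then Myog as it leaves the cell cycle and differentiates, while Myf6 (also called MRF4) is the member of the family that mature fibres keep. Mef2c is a MADS-box factor that acts with these regulators. Mymk (myomaker) and Mymx (myomixer) are membrane proteins that let myoblasts fuse with each other and with fibres, and Cdh15 (M-cadherin) joins satellite cells to their fibre.

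The sequence just before the start of Myog is shown because Myog was called between the ages in both sham and burn mice, and that of Myf5 because it is a member of the same factor family that was not called in any comparison. RefSeq held such a window on GRCm38.p6 for 5 of the 9 genes, those of Pax7, Myf5, Myog, Mef2c and Cdh15. Each line gives the 250 bases before the RefSeq start in the direction of the gene. Capitals mark E-boxes (CANNTG), the MEF2 core (TANNNNTA with A or T at every N) and the MEF3 motif (TCAGGTT), each searched on both strands, and no marked motif overlaps another.
Myog, chr1:134289754-134290003, + strand: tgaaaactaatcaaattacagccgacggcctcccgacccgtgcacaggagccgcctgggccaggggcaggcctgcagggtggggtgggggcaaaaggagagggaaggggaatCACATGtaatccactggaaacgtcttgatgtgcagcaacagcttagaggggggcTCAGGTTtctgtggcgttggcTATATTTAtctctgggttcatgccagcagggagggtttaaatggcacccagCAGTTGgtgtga
Myf5, chr10:107486135-107486384, - strand: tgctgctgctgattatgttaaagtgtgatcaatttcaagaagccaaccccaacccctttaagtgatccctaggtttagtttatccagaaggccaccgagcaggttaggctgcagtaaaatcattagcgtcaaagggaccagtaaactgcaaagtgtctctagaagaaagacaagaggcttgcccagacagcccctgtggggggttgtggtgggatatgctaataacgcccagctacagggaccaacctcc
The Myog window had 2 E-boxes, which begin 138 and 12 bases before the start, a MEF2 core 63 bases and a MEF3 motif 84 bases before it. Gencode starts Myog a few bases further upstream, so the E-box nearest the start lies within its gene model. No such motif was found in the Myf5 window or in that of Pax7, which lies wholly within the Gencode gene model. Mef2c and Cdh15, which were not called between the ages either, did have such motifs. A Mef2c window (from 83503784) held 2 E-boxes, 1 MEF2 core and 1 MEF3 motif, as the Myog window did. Other Mef2c windows held 0 or 1 E-box, and the Cdh15 window held 3. These other Mef2c windows and the Cdh15 window, too, lie wholly within the Gencode gene models. Among 32817 windows of this length, 66.2% had an E-box, 8.56% a MEF2 core and 3.5% a MEF3 motif. A match of letters describes the window and does not show that a factor was bound there.

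The libraries held from 4392605 to 5688512 counts, of which the 9 genes took from 0.0792% to 0.0882%. Levels below are normalized CPM, counts scaled by edgeR's TMM factors to a common library size. All 8 myofibre markers were detected, with a summed level from 50700 to 101000 CPM, as the labelled tissue would hold. One young burn animal was left out of a figure of the study, and young burn replicate 2 is absent there. This library agreed least with its own group (mean Pearson r 0.941 across genes, against 0.960 to 0.982 in the other 11) and had the highest TMM factor (1.19). Counts of calls are therefore given with all 12 libraries and without it, as 11 libraries, and so are single values that moved with it. In whole muscle, fewer cells of a type and less RNA per cell cannot be told apart.

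Age separated Myog and Mymk, both higher in every young than in every adult library. Myod1 was lower in young than in adult sham muscle, but its burn libraries overlapped between the ages. With 3 libraries a group, the levels of a gene can also separate without a change. The share of all genes whose groups separated was not counted, so the separations given below are descriptions. Differences were tested in edgeR's quasi-likelihood model over all genes, and those with a Benjamini-Hochberg adjusted p under 0.05 are referred to as called. Of the 9 genes, 8 had enough counts to be tested, and Mymx did not. Mymk had enough through its young libraries alone, those in which it was high. The 9 genes were also chosen with earlier results of these data known. The counts of members called are therefore descriptions beside the share of all genes. Between young sham and adult sham, edgeR called 3 of these 8, against 3.76% of all 12408 genes tested. With 11 libraries it called the same 3, and 11.8% of 12651 genes. Between young burn and adult burn it called 2 of the 8, Myog and Mymk, against 10.8% of all genes, and with 11 libraries 3, with Myf6 lower in young burn, against 20.7%. With the age differences in sham and burn mice averaged, it called 3 of the 8 (Myod1, Myog and Mymk) against 20.3% of all genes, and 4 with 11 libraries, where Myf6 was added, against 31.6%. The median log2 fold change of the 8 in that averaged comparison was 0.21 (young over adult), beside 0.02 over all genes.

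For burn, no member was called in the edgeR fit with 12 or with 11 libraries, while other settings of edgeR called some, as given for each gene below. Between adult burn and adult sham, edgeR called 0 of the 8 and 0.00806% of all genes (0 and 0.909% with 11 libraries). An unadjusted p under 0.05 was reached by 1 of the 8, Myf6, beside 853 of all 12408 genes. DESeq2 also called 0, with 0.0245% of its genes called. Between young burn and young sham, edgeR called 0 and 0.0645% of all genes (0 and 0.664% with 11 libraries). There, 4 of the 8 had an unadjusted p under 0.05 (Myod1, Myog, Myf6 and Mef2c), beside 2519 of all 12408 genes. DESeq2 called 1, Myog, with 4.53% of its genes called. With the burn differences in both ages averaged, edgeR called 0 and 0.903% of all genes (0 and 2.81% with 11 libraries). Myf6 and Mef2c had an unadjusted p under 0.05 in that comparison, beside 2480 of all 12408 genes. DESeq2 called 1, Myf6, with 4.18% of its genes called. The test of whether burn acted differently in the ages called 0 of the 8 and 0% of all genes (0 and 0.0949% with 11 libraries). Of the 8, Myog alone had an unadjusted p under 0.05 in it, beside 893 of all 12408 genes. DESeq2 called 0 with 0.00351% of its genes called.

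**Figure D1:**
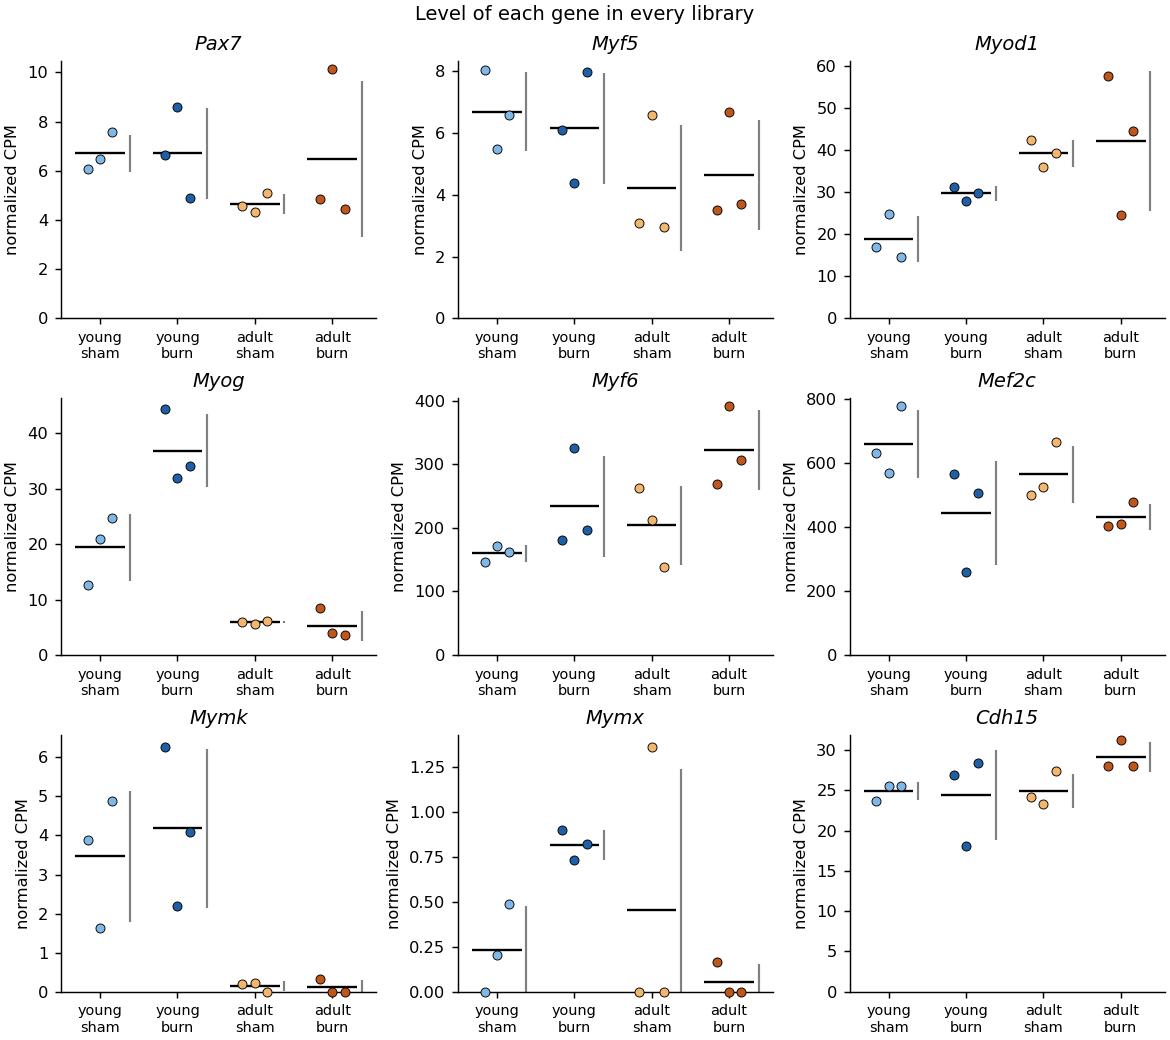
Normalized CPM of the 9 genes in each of the 12 libraries (points, in the order of replicates 1 to 3), with the group mean as a black line and 1 SD as a grey bar. Myog and Mymk lie higher in all young than in all adult libraries, and young burn replicate 2 (the middle blue point of its group) stands apart in Myf6, Mef2c and Cdh15.

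Pax7 (ENSMUSG00000028736.13, chromosome 4 from 139737062 to 139833528 on GRCm38), the satellite cell factor, was low in every group and was not called for age or burn. Its level was 6.09, 6.48 and 7.56 CPM in young sham and 4.55, 4.31 and 5.09 CPM in adult sham, so the sham groups did not overlap. The burn groups did, with 6.63, 8.58 and 4.91 CPM in young burn and 4.86, 10.1 and 4.46 CPM in adult burn. Adult burn replicate 2 was highest of all, with 56 counts. Averaged over sham and burn, the log2 fold change of young over adult was 0.29 (standard error 0.22, adjusted p = 0.382), and 0.18 with 11 libraries.

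Myf5 (ENSMUSG00000000435.1, chromosome 10 from 107482908 to 107486134), the early regulator beside Pax7 in the lineage, ranged from 4.38 to 8.04 CPM in young and from 2.97 to 6.69 CPM in adult libraries. The ages overlapped through the second replicates of both adult groups, at 6.57 and 6.69 CPM. Its averaged age difference was 0.53 (standard error 0.25, adjusted p = 0.147), and 0.63 with 11 libraries (adjusted p = 0.0589), which did not pass the threshold. Pax7 and Myf5 had between 14 and 56 counts in a library.

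Myod1 (ENSMUSG00000009471.4, chromosome 7 from 46376474 to 46379099), the regulator of committed myoblasts, was lower in young muscle. It stood at 17.1, 24.9 and 14.6 CPM in young sham and at 42.4, 36.0 and 39.5 CPM in adult sham, with no overlap. In burn mice it stood at 31.4, 27.9 and 29.8 CPM in the young and at 57.7, 24.6 and 44.6 CPM in the adult, which overlapped because adult burn replicate 2 lay below every young burn library. The log2 fold change of young sham over adult sham was -1.05 (standard error 0.26, adjusted p = 0.0437), and averaged over sham and burn it was -0.78 (standard error 0.18, adjusted p = 0.00966). The averaged difference was called in all 17 refits with other settings or a library left out, at adjusted p of at most 0.0317. The sham difference was lost in 8 of the 12 refits that left out a library. These were the fits without young sham replicate 1 (adjusted p = 0.0960), 2 (0.0518) or 3 (0.193), without young burn replicate 3 (0.0559), without adult sham replicate 1 (0.129), 2 (0.108) or 3 (0.101) and without adult burn replicate 3 (0.0635). Between the burn groups Myod1 was not called with all 12 libraries (adjusted p = 0.195), and without adult burn replicate 2 (log2 fold change -0.79, adjusted p = 0.0456) and with every counted gene kept in the fit (0.0375) it was.

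Myod1 was also higher in each young burn than in each young sham library. The log2 fold change there was 0.65 (standard error 0.26), with adjusted p = 0.199 with 12 libraries and 0.245 with 11, so it was not called. In adult mice the burn and sham libraries overlapped, and adult burn held both the highest and the lowest adult level.

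Myog (ENSMUSG00000026459.5, chromosome 1 from 134289989 to 134292548), the factor of differentiating muscle cells whose promoter is printed above, was higher in every young than in every adult library. Young sham had 12.7, 20.9 and 24.6 CPM, and young burn 44.3, 32 and 34.1 CPM. Adult sham had 6.0, 5.67 and 6.15 CPM, and adult burn 8.38, 3.98 and 3.53 CPM. The lowest young library thus stood above the highest adult one. The log2 fold change of young over adult was 1.70 in sham mice (standard error 0.31, adjusted p = 0.0112) and 2.78 in burn mice (standard error 0.29, adjusted p = 0.000381). Averaged, it was 2.24 (standard error 0.21, adjusted p = 3.94e-05). The call in burn mice held in all 18 refits, and the averaged one in all 17. The sham call was lost without young sham replicate 3 (adjusted p = 0.0670) and without adult sham replicate 2 (0.0596), and held in the other 16 refits.

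After burn, Myog was highest in the young burn group, where each library exceeded each young sham library. The log2 fold change of young burn over young sham was 0.92 (standard error 0.26, adjusted p = 0.101), and 1.03 with 11 libraries (standard error 0.25, adjusted p = 0.0743), so edgeR did not call it. DESeq2 did (adjusted p = 0.0436), as did edgeR with scaling by library size alone (0.0363) and without a filter on low counts (0.000158). In adult mice, burn and sham libraries overlapped. The difference between both burn effects was 1.07 on the log2 scale (95% interval 0.14 to 2.01, unadjusted p = 0.0271, adjusted p = 0.683), and 1.18 with 11 libraries (adjusted p = 0.351). A larger burn effect in young than in adult muscle was therefore not shown for Myog by the test over all genes.

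Because Myod1 and Myog differed in opposite directions between the ages, their counts were also set against each other within each library, where no scaling between libraries enters. This ratio was chosen after the values had been seen and was not tested. Myog had 0.743, 0.837 and 1.68 counts for each count of Myod1 in young sham and 1.41, 1.14 and 1.14 in young burn. In adult sham the ratio was 0.141, 0.157 and 0.156, and in adult burn 0.145, 0.162 and 0.0792. The highest adult ratio, in adult burn replicate 2, was far below the lowest young ratio.

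**Figure D2:**
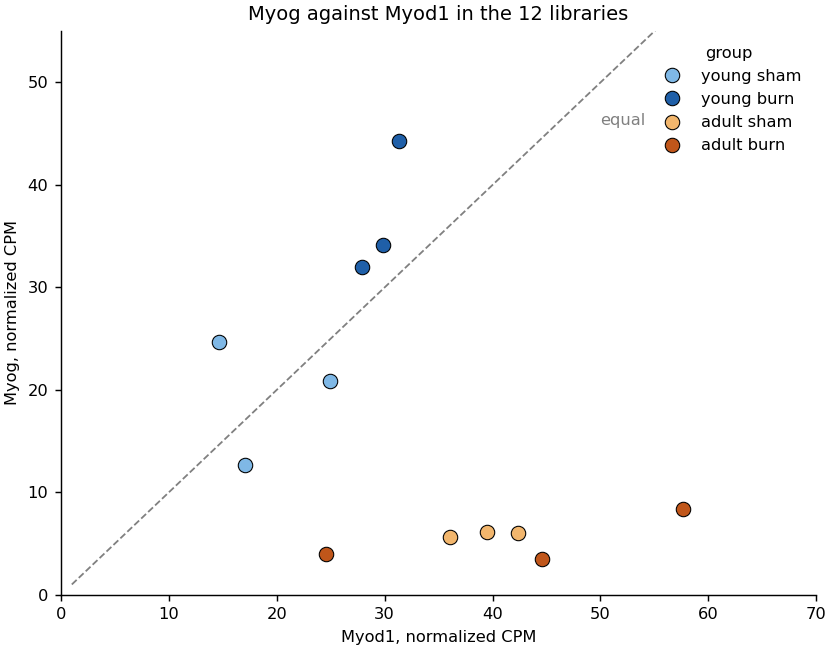
Myog against Myod1 in normalized CPM, 1 point a library, with a dashed line at equal levels. The adult libraries lie along the bottom between 3.53 and 8.38 CPM of Myog, young burn lies above the line, and young sham lies on both sides of it.

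Myf6 (ENSMUSG00000035923.4, chromosome 10 from 107492853 to 107494737, next to Myf5), the family member kept by mature fibres, was the most abundant regulator per length. It had 146, 172 and 162 CPM in young sham, 180, 325 and 196 CPM in young burn, 262, 212 and 138 CPM in adult sham and 268, 392 and 307 CPM in adult burn. At both ages every burn library lay above every sham library. The log2 fold change of burn over sham was 0.55 in young (standard error 0.25, adjusted p = 0.237) and 0.66 in adult mice (standard error 0.25, adjusted p = 0.669). Without young burn replicate 2 the young difference was 0.25 (adjusted p = 0.601) and the adult one 0.66 (adjusted p = 0.111). Averaged over the ages it was 0.60 (standard error 0.18, adjusted p = 0.104), and without young burn replicate 2 it was 0.45 (adjusted p = 0.0931). Burn was therefore not called for Myf6, although DESeq2 called the averaged difference (adjusted p = 0.0337), as did edgeR without a filter on low counts (1.75e-05) and without young burn replicate 1 (0.68, adjusted p = 0.0422).

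For age, Myf6 depended on young burn replicate 2, which had the highest young level. Between young burn and adult burn the log2 fold change was -0.46 with this library (adjusted p = 0.233) and -0.77 without it (standard error 0.21, adjusted p = 0.0184). The remaining young burn libraries, at 180 and 196 CPM, lay below all 3 adult burn libraries. The averaged age difference was -0.41 (adjusted p = 0.117) with 12 and -0.57 (standard error 0.14, adjusted p = 0.00681) with 11 libraries. With all 12 it was also called when every counted gene was kept in the fit (-0.42, adjusted p = 0.00495).

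Mef2c (ENSMUSG00000005583.16, chromosome 13 from 83504034 to 83667080), the MADS-box partner, had the most counts of the 9 genes. Its level was 631, 568 and 777 CPM in young sham and 564, 258 and 506 CPM in young burn. Adult sham had 500, 524 and 666 CPM and adult burn 404, 409 and 477 CPM. Each burn library was below each sham library of its age, the opposite of Myf6, and young burn replicate 2 was lowest of all. The log2 fold change of burn over sham was -0.57 in young mice (standard error 0.24, adjusted p = 0.201), which fell in size to -0.29 without young burn replicate 2 (adjusted p = 0.371). It was -0.48 averaged over the ages (standard error 0.17, adjusted p = 0.149), and -0.34 without young burn replicate 2 (adjusted p = 0.0855). None of these was called, nor was the averaged age difference of 0.13 (adjusted p = 0.613), which was 0.27 with 11 libraries (adjusted p = 0.0537). With every counted gene kept in the fit, edgeR called both burn differences (adjusted p = 0.0175 and 0.00168).

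In the same libraries, markers of immune cells moved with burn. The summed level of 5 macrophage markers was 118 to 155 CPM in sham and 141 to 337 CPM in burn libraries. With burn averaged over the ages, edgeR called 2 of the 5 higher, beside 0.903% of all genes. The summed level of 5 neutrophil markers was 1.82 to 5.17 CPM in sham and 6.87 to 27.4 CPM in burn libraries. Its highest value was in young burn replicate 2, and Ngp was at 0 in every library but 1. Of the neutrophil markers 2 could be tested and 1, S100a9, was called higher. Other marker sums separated with burn at 1 age. In young mice that of 4 tendon markers was 379 to 407 CPM in sham and 139 to 261 CPM in burn libraries, and that of the 8 myofibre markers 69500 to 101000 CPM against 50700 to 65900 CPM. In adult mice that of 4 smooth muscle markers was 756 to 796 CPM in sham and 605 to 636 CPM in burn libraries. That of 3 red blood cell markers was 258 to 413 CPM in adult sham and 220 to 249 CPM in adult burn. With 3 libraries a group, sums can also separate without a change. The part of these cells in the burn values was not tested.

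Mymk (ENSMUSG00000009214.9, chromosome 2 from 27061636 to 27072179), the fusion protein myomaker, was counted in every young library and stood near 0 in adult muscle. It had 16, 8 and 20 counts in young sham and 35, 12 and 20 in young burn, against 1, 1 and 0 in adult sham and 2, 0 and 0 in adult burn. No young library overlapped an adult one. Summed over the ages these are 111 against 4 counts, 29.4 times as much after scaling (95% counting interval 11.2 to 110). In sham mice the ratio was 23.4 (6.10 to 199, from 44 against 2 counts) and in burn mice 35.5 (9.44 to 299, from 67 against 2). Such intervals are exact for counts summed over the libraries of a group. They cover counting error only and leave out the spread between mice. The reads carried no molecular identifiers. An adult library with 0 counts allows a level of up to 3 counts, from 0.542 to 0.636 CPM in these 3 libraries, which is below the lowest young level of 1.62 CPM.

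The edgeR adjusted p for Mymk was 0.0160 between the sham groups, 0.00347 between the burn groups and 0.000298 averaged. Mymk passed the filter on low counts through its young libraries alone, the libraries in which it was high. The burn and the averaged calls held in all 18 and 17 refits. Both adult burn counts came from adult burn replicate 1, and without it 67 stood against 0 counts, at least 15.3-fold higher when 3 counts are allowed over the group. The sham call was lost without young sham replicate 3 (adjusted p = 0.0842) and without adult sham replicate 1 (0.0638), 2 (0.0688) or 3 (0.0577). With the sham groups fitted alone, Mymk did not pass the filter and was not tested. Within young mice, 67 counts after burn stood against 44 after sham, a ratio of 1.25 (0.845 to 1.88), and without young burn replicate 2 it was 1.57 (1.04 to 2.39). The young groups overlapped, and Mymk was not called for burn (adjusted p = 0.751).

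Mymx (ENSMUSG00000079471.4, chromosome 17 from 45600971 to 45602102), which acts with Mymk in fusion, was close to the limit of counting. It had 0, 1 and 2 counts in young sham, 5, 4 and 4 in young burn, 0, 6 and 0 in adult sham and 1, 0 and 0 in adult burn. Every young burn library thus had more counts than every young sham and adult burn library, while adult sham replicate 2 alone had 6. The ratio of young burn to adult burn was 13.8 (2.07 to 585, from 13 against 1 counts), and that of young burn to young sham 3.57 (0.981 to 19.5, from 13 against 3). Young sham to adult sham went the other way, at 0.531 (0.0859 to 2.49, from 3 against 6). For all young against all adult libraries the ratio was 2.42 (0.943 to 6.97, from 16 against 7). These intervals, too, cover counting error only and leave out the spread between mice. The gene did not pass the filter on low counts and was not tested.

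**Figure D3:**
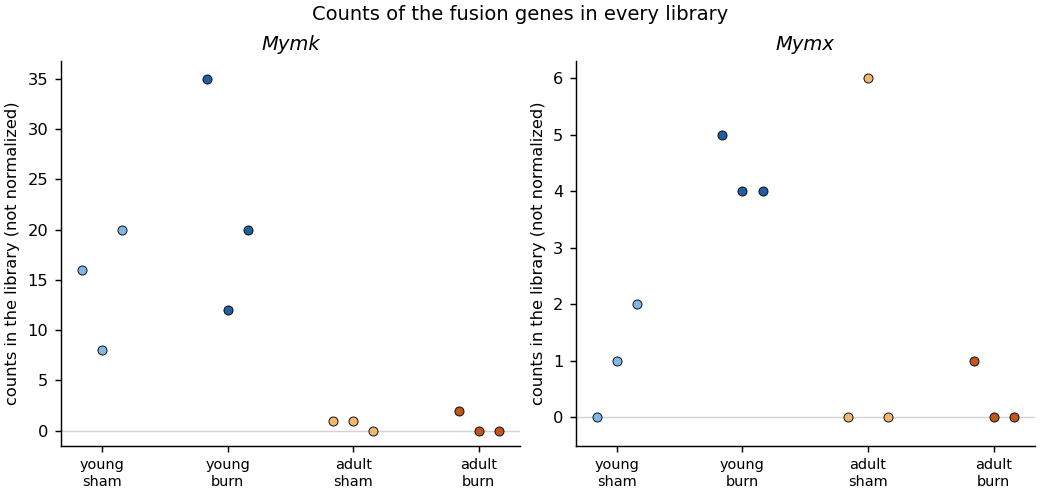
Raw counts of Mymk and Mymx in each library (points, not normalized). Mymk has from 8 to 35 counts in young and from 0 to 2 in adult libraries, and Mymx reaches 4 or more counts in all 3 young burn libraries and in adult sham replicate 2 only.

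Cdh15 (ENSMUSG00000031962.6, chromosome 8 from 122847966 to 122867397), the adhesion protein between satellite cell and fibre, had the smallest ratio of highest to lowest level among the 9 genes. It had 23.6, 25.5 and 25.6 CPM in young sham, 26.9, 18.1 and 28.4 CPM in young burn, 24.2, 23.3 and 27.4 CPM in adult sham and 28.0, 31.3 and 28.0 CPM in adult burn. Young burn replicate 2 was the lowest. Every adult burn library lay above every adult sham library, but burn was not called there (adjusted p = 0.789). The young groups overlapped. Without young burn replicate 2, young burn lay above young sham, again without a call (adjusted p = 0.558). The averaged age difference was -0.13 (95% interval -0.37 to 0.11, adjusted p = 0.456), and -0.04 with 11 libraries (-0.22 to 0.13). These intervals leave room for a difference of up to that size in either direction.

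**Figure D4:**
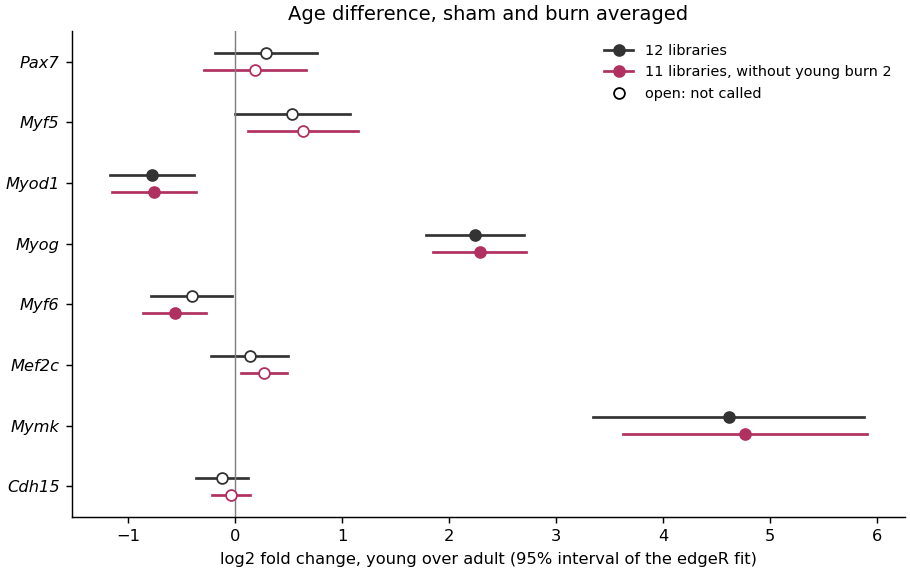
Log2 fold change of young over adult, sham and burn averaged, with the 95% interval of the edgeR fit, for the 8 genes tested, with 12 libraries (black) and 11 (red); filled points were called. Myog (2.24) and Mymk (4.61) lie to the right and Myod1 (-0.78) to the left in both fits, and Myf6 is filled with 11 libraries only. The Mymk estimate rests on 4 adult counts and depends on the prior count of the model.

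Per kilobase of exon, the order of the regulators differed between the ages. In young sham, Myf6 led with 127 ± 10.4 CPM per kb (SD, n = 3), then Mef2c with 41.9 ± 6.83, Myog with 13.0 ± 4.09, Myod1 with 10.1 ± 2.89, Cdh15 with 7.66 ± 0.344, Myf5 with 3.22 ± 0.619 and Pax7 with 1.15 ± 0.130 CPM per kb. Myog and Myod1 lay within each other's spread there. In adult sham the order ran from Myf6 with 162 ± 49.5 and Mef2c with 35.9 ± 5.70 to Myod1 with 21.1 ± 1.71, Cdh15 with 7.68 ± 0.652, Myog with 3.97 ± 0.166, Myf5 with 2.02 ± 0.981 and Pax7 with 0.793 ± 0.0686 CPM per kb. Myog thus stood beside Myod1 in young sham and below both Myod1 and Cdh15 in adult sham, by more than their spread. Mymk was at 2.29 ± 1.11 CPM per kb in young sham and 0.0956 ± 0.0831 in adult sham. The length is that of all annotated exons joined, which for Mef2c (15715 bases) is longer than a single transcript.

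Markers of other cell types were read beside the age differences. The summed level of 6 fibroblast markers was 5730 to 7330 CPM in young and 2490 to 3340 CPM in adult libraries, and 3 of the 6 (Col1a1, Col3a1 and Lum) were called higher in young muscle with sham and burn averaged. The lineage marker Pdgfra among them was not called, at 65.1 to 125 CPM in young and 54.6 to 87.2 CPM in adult libraries. Of 5 Schwann cell markers 3 could be tested and 2 were called higher in young muscle, and of 5 endothelial markers, all tested, 2 were, where 20.3% of all genes were called. The part of these cells in the age differences of Myog, Mymk and Myod1 was not tested.

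The wider satellite cell and Notch list had 23 of 24 genes tested, of which 7 were higher and 0 lower in young muscle with sham and burn averaged (median log2 fold change 0.26), a share of 30.4% beside the 20.3% of all genes. This list and those below were chosen with earlier results of these data known. Their shares beside that of all genes are therefore descriptions and not tests of the lists. The leading genes were Megf10, a receptor of satellite cells, at 2.23 (standard error 0.22, adjusted p = 4.31e-05), Calcr, the calcitonin receptor of quiescent satellite cells, at 1.48 (0.000888), Cxcr4, a chemokine receptor, at 1.21 (0.00989), and Cd34, also on endothelial cells, at 0.41 (0.0130). Pax7 itself was not among those called. With 11 libraries 11 were higher and 0 lower, 47.8% beside 31.6% of all genes. For burn averaged over the ages, 0 of the 23 were called.

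Among partners and inhibitors of the regulators, 25 of 26 genes were tested, and 7 were higher and 6 lower in young muscle (median 0.10), 52% beside 20.3% of all genes. Cdkn1c, an inhibitor of the cell cycle, was 1.72 higher on the log2 scale (standard error 0.21, adjusted p = 0.000179) and the E-protein Tcf4, a dimer partner of the regulators, 0.67 higher (0.00224). Eya4, a transcriptional coactivator, had a log2 fold change of -0.51 (0.00214) and Smarcd3, a chromatin remodelling subunit that works with Myod1, of -0.58 (0.00531). For burn, this list held an inhibitor that passed the test: Id3, which binds E-proteins and keeps them from the regulators, rose by 1.00 on the log2 scale in young burn over young sham (standard error 0.16, adjusted p = 0.0355). Its level was 29.5, 28.2 and 29.0 CPM in young sham and 62.5, 48.2 and 62.7 CPM in young burn, while adult sham had 33.7, 26.3 and 28.6 CPM and adult burn 36.2, 24.9 and 32.5 CPM. It was the only 1 of the 25 called in that comparison with 12 libraries (4% beside 0.0645% of all genes), and 3 were called with 11, where Id1 was also higher and Bhlhe41 lower. The Id3 call held in 11 of 18 refits and was lost, at adjusted p of up to 0.207, without any 1 of the young sham replicates, without young burn replicate 3, adult sham replicate 1 or adult burn replicate 3, and with the compared groups alone. For burn averaged over the ages, 2 of the 25 were called (8% beside 0.903% of all genes), Id3 higher (0.54, adjusted p = 0.0472) and Bhlhe41, a repressor of Myod1 activity, lower (-0.76, adjusted p = 0.0326). These calls held in 7 and 9 of 17 refits and had adjusted p of up to 0.134 and 0.117 in the others. Leaving out any 1 of the adult libraries lost both of them.

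In the adhesion and fusion list, 22 of 26 genes were tested, and 8 were higher and 3 lower in young muscle (median 0.15), 50% beside 20.3% of all genes. Cdh2 (N-cadherin) was higher by 1.15 (standard error 0.25, adjusted p = 0.00735), the tetraspanin Cd9 by 0.46 (0.00381) and Ehd2 by 0.37 (0.00914). Stab2, a receptor for phosphatidylserine, had a log2 fold change of -1.69 (0.000388). For burn averaged over the ages, 0 of the 22 were called.

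Genes of immature fibres had 9 of 12 tested, of which 7 were higher and 1 lower in young muscle (median 0.90), 88.9% beside 20.3% of all genes. Actc1, the cardiac actin of developing fibres, was 3.64 higher on the log2 scale (standard error 0.29, adjusted p = 1.31e-05), the imprinted RNA H19 2.68 higher (2.76e-06), the troponin Tnnt2 1.25 higher (0.00628) and the acetylcholine receptor subunit Chrna1 0.73 higher (0.0121). For burn averaged over the ages, 1 of the 9 was called, Myl4, which was lower (-0.63, adjusted p = 0.0453). That call held in 5 of 17 refits and was lost without any 1 of the sham or adult burn libraries, without young burn replicate 3, with library size alone and in 1 further fit, at adjusted p of up to 0.134. Of 12 proliferation genes only 5 could be tested, and 1, Rrm2, was higher in young muscle (1.17, adjusted p = 0.0226), a share of 20% like that of all genes. The Rrm2 call was lost without young sham replicate 2 or 3 and without adult sham replicate 2 or 3, at adjusted p of up to 0.0660. Their summed level was 39.7 to 74.9 CPM and overlapped between all 4 groups.

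The protein-coding genes with profiles most like 3 of the members over the 12 libraries were looked up by the root mean square difference of standardized log2 CPM, as a description. For Myog they were Megf10 (0.256), Sh3bgrl (0.259), Adgrl4 (0.259), Bst2 (0.264) and Pxdn (0.277). For Mymk they were Atxn7l3b (0.250), C1qtnf6 (0.255), Sh3bgrl (0.267), Adgrl4 (0.272) and Plk2 (0.276), so Sh3bgrl and Adgrl4 stood in both lists. Those of Pax7 were further away, Tmem50b (0.477), Rbbp6 (0.488), Tbc1d12 (0.557), Rbm25 (0.563) and Mier3 (0.567).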

How the data were processed

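Poly-A RNA of 12 gastrocnemius muscles was read as paired 75 base reads on a NextSeq 550. Per the labels and methods, the authors aligned reads to GRCm38 with STAR 2.7.5c and deposited raw counts per Gencode M25 gene from its GeneCounts option, without normalization or filter. Which strand was counted is not stated in those sources. Small RNA libraries were not used here. Counts per library ranged from 4392605 to 5688512, and fewer counts give less precise levels. The study's quality report on the RNA gave no integrity number for any of the 12 samples. Its highest ratios of large to small ribosomal RNA were in adult sham samples. The part of RNA quality in the differences was not tested. In R 4.3.3, edgeR 4.0.16 (TMM scaling, filterByExpr at 10 counts and 15 in total, a mean per group, two-sided quasi-likelihood tests, Benjamini-Hochberg adjustment over all genes tested) was the main test, and DESeq2 1.42.0 an alternative. Mice are the replicates. Group ratios of few counts, summed over the libraries, have exact 95% intervals for counting error alone, and a count of 0 allows up to 3 counts. Gene positions and exon lengths came from Gencode M21, promoter windows from RefSeq (GRCm38.p6). The 9 genes and all lists were chosen with earlier results of these data known. All 9 genes were to be named, up to 4 called genes a list by p in the averaged age comparison, and the 5 nearest profiles (prior count 2) of Pax7, Myog and Mymk. Alternatives were edgeR's RLE factors, library size alone, no filter, DESeq2, the compared groups alone, a replicate block and each library left out.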

Additional observations from a re-analysis of the deposited data

How the results depend on the processing

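The counts of members called were recomputed in 123 refits and stayed within 1.5 times in 112. Between young sham and adult sham the count of 3 ranged from 0 to 3 when a library was left out. It was 0 without young sham replicate 3 or adult sham replicate 2 and 1 (Myog) without adult sham replicate 1 or 3. Without a filter on low counts it went from 0 to 1 for adult burn against adult sham (Myf6), from 0 to 4 for young burn against young sham (Myod1, Myog, Myf6 and Mef2c) and from 0 to 2 for burn averaged over the ages (Myf6 and Mef2c). For young burn against young sham it was also 1 (Myog) with library size alone and with DESeq2. For burn averaged over the ages it was 1 (Myf6) with DESeq2 and ranged from 0 to 1 with a library left out, 1 without young burn replicate 1. Without the filter the fold changes hardly moved while the adjusted p of edgeR fell. For Myf6 with burn averaged over the ages they went from 0.60 (adjusted p = 0.104) to 0.61 (1.75e-05). The cause of these changes was not tested. For the edgeR refits other than that with 11 libraries, the share of all genes called is not given here. Their counts of members therefore cannot be set against it. Leaving a library out leaves fewer samples to fit. The 22 fold changes given for the 9 genes kept their sign in all 384 refits, with 15 calls lost and 14 gained. Of 34 others, 17 changed sign in 47 refits, all with a size of at most 0.47 on the log2 scale with 12 libraries, and 1 (Myod1 between the burn groups) was called in a refit. The 21 fold changes named from the lists were refitted after the data had been seen. They kept their sign in all 358 refits, and 16 were called in every one.

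The replicate numbers of the labels belong to different mice. Deviations of same-numbered libraries correlated by -0.197 to 0.153 and those of differently numbered ones by -0.187 to 0.206, so the numbers were not taken as pairs. With the replicate block, the call of Myod1 between the sham groups was lost (-1.03, adjusted p = 0.0614), and no other call of a member changed.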
